A study of Mus musculus with 15 samples.

Results

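Fibroblast growth factor (FGF) genes and the genes that relay or damp their signal were followed in Pitx3-GFP mouse midbrain, as one set of 37 genes. The set was defined by gene symbol, with earlier results of these data known. It was taken from a sorted-cell table of 21566 genes: every numbered Fgf gene, the receptors Fgfr1 to Fgfr4 and Fgfrl1, the carriers Fgfbp1 and Fgfbp3, the Sprouty genes Spry1, Spry2 and Spry4, Spred1 to Spred3, the phosphatases Dusp4 and Dusp6, the ETS factors Etv1, Etv4 and Etv5, and Il17rd. Of these, 30 averaged at least 5 normalized reads in the sorted libraries and were tested there, 7 lay below that level, and 17 had a row in a time series table of 10781 genes. Fgf4, Fgf6, Fgf21, Fgf22 and Spry3 had no row in either and were not analysed here.

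In Pitx3-GFP mice, green fluorescent protein (GFP) marks cells in which Pitx3, which encodes a transcription factor of midbrain dopamine neurons, is switched on. Ventral midbrain cells were purified by fluorescence-activated cell sorting, and ribosome-depleted total RNA was sequenced from 15 libraries in 5 groups of 3. The sorted experiment set GFP+ against GFP− cells of embryonic day 14, called E14. The time series held GFP+ cells alone, from E14, E16 and P0, where E16 is embryonic day 16 and P0 is birth. All groups carry the Pitx3-GFP genotype and the labels name no treatment, tissue came from 3 litters, and the labels do not tie a library to a litter, so p-values measure the spread between libraries, part of which may be technical. GFP− cells are all cells that the gate left out, a mixture of types.

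Secreted FGFs bind receptor tyrosine kinases together with heparan sulfate chains on the cell surface. The active receptor recruits adaptor proteins that switch on RAS and the kinase ERK, and ERK raises the transcription of the ETS factors Etv4 and Etv5 and of inhibitors that damp the same route. In the embryo, FGF8 from the boundary between midbrain and hindbrain patterns the midbrain, and FGF signals keep progenitors dividing. The 4 intracellular FGF homologous factors, Fgf11 to Fgf14, resemble FGFs in sequence but are not secreted and bind voltage-gated sodium channels.

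Depth was 17369191 to 22374153 reads per sorted library and 17910017 to 33386535 per time series library. The labels give dopamine neurons as the cell type of every library, GFP− ones included. The 12 dopamine neuron markers were all higher in GFP+ cells, with a summed level of 105377 to 118549 normalized reads against 7423 to 9472 in GFP− cells. Radial glia and progenitor markers (13 of 14 lower) summed to 9754 to 11708 normalized reads in GFP+ cells, against 89697 to 104124 in GFP− cells, and 12 of 12 cell division markers were lower, with sums of 1626 to 1806 in GFP+ and 8131 to 10318 in GFP− cells. Sums for astrocyte markers (5 of 8 lower, 1 higher) were 8595 to 9077 in GFP+ and 18652 to 18945 in GFP− cells. Most of the GFP+ sum came from Slc1a2, the 1 higher, with 7395 to 7809 normalized reads in GFP+ and 4877 to 5479 in GFP− cells. Sums for the oligodendrocyte lineage (5 of 8 lower) were 956 to 1668 in GFP+ and 3633 to 3920 in GFP− cells. Blood vessel markers (9 of 10 lower) summed to 683 to 810 in GFP+ and 1608 to 1805 in GFP− cells, and microglia markers (8 of 8 lower) to 41.5 to 73.0 in GFP+ and 572 to 695 in GFP− cells. In the time series, the third P0 library stood apart in some glial genes and in some neuronal genes. Fabp7, a lipid carrier of radial glia, had 1438, 1081 and 3293 normalized reads in P0 libraries 1, 2 and 3, and the 5 progenitor markers in that table summed to 6500, 6218 and 10844. Other glial and progenitor markers did not set it apart, with Vim at 953, 908 and 882, Nes at 285, 213 and 228 and Slc1a2 at 6045, 6563 and 6680. Msi1 had 294, 343 and 305. Among neuronal genes, Slc17a6 had 8211, 8294 and 5111, Gad2 4568, 3934 and 2779 and Slc6a3 20001, 28473 and 41949. Changes of members up to P0 are therefore followed by their value without that library. The time series table had no row for any blood vessel, fibroblast or microglia marker of the lists, and 2 of 8 astrocyte and 2 of 8 oligodendrocyte markers.

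Promoter sequence is shown for 4 members that were lower in GFP+ cells: Dusp6 and Spry2, inhibitors of the pathway, Fgfbp3, a secreted carrier of FGFs, and Fgfrl1, a receptor without a kinase domain. The windows hold the bases just before the start site, from RefSeq on GRCm38.p6, and annotated exon bases were removed. They lie at chr10:99262981-99263230 on the plus strand for Dusp6, chr19:36919616-36919849 on the minus strand for Fgfbp3, chr5:108693979-108694228 on the plus strand for Fgfrl1 and chr14:105896820-105897069 on the minus strand for Spry2. Capitals mark either of the searched motifs on either strand, the ETS core CCGGAA and the Capicua core TGAATGA. Capicua is a repressor that ERK switches off.
Dusp6: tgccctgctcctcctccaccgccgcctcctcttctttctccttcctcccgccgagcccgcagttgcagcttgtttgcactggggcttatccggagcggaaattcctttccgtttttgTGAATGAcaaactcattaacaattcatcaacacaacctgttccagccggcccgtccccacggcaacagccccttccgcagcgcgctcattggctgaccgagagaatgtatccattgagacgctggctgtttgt
Fgfbp3: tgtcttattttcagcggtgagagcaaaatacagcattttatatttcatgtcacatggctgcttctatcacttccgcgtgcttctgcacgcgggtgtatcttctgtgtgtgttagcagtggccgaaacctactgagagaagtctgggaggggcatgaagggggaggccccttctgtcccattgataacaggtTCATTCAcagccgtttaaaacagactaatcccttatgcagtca
Fgfrl1: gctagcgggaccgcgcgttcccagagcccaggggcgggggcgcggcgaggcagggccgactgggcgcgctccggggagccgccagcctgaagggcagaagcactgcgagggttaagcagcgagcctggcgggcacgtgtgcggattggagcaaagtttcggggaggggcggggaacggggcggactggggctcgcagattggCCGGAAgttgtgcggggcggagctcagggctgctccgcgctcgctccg
Spry2: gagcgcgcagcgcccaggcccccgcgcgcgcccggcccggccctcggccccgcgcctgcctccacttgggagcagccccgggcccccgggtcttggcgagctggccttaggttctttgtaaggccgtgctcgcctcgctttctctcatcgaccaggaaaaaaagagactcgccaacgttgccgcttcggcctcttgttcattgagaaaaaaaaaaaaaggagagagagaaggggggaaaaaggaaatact
Dusp6 and Fgfbp3 hold a Capicua core, Fgfrl1 an ETS core and Spry2 neither. Of the 37 members, 27 had a promoter in the RefSeq table. Over the 250 bases before the start, TGAATGA was found in 4 of the 27 members (14.8%), Dusp6, Fgfbp3, Fgf23 and Spred3, and in 3.61% of all 27025 genes. CCGGAA was found in 4 of 27 members (14.8%), Fgf5, Fgf12, Fgfr4 and Fgfrl1, against 13.6% of all genes. The 4 genes with TGAATGA did not move one way: Dusp6 and Fgfbp3 were lower in GFP+ cells, Spred3 was higher and Fgf23 was too low to test. The motifs share no bases in these windows, and a match is a description of letters, not of binding.

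At E14, more of the tested FGF members were lower than higher in GFP+ cells. By limma at an adjusted p under 0.05, 24 of 30 tested members differed, 7 higher and 17 lower, against 30.7% of all 18260 genes tested (12.7% higher and 18% lower). The members' median log2 fold change was -0.80, against 0.02 over all genes. Among the members, 13 were lower by at least 1 on the log2 scale (11.2% of all genes were) and 4 were higher by at least 1 (4.24% of all genes). The GFP+ and GFP− libraries did not overlap for 26 of the 30 members, compared with 44.1% of all genes. Rescaling every library to the same total left the members at 7 higher and 17 lower but moved the genes called in all to 1559 higher and 4020 lower, against 2313 and 3286 as deposited. Fewer cells of a type and less RNA per cell cannot be told apart in such bulk libraries. The part of residual progenitors in the values below was not tested. Opposite-strand overlaps of 123 to 787 exon bases with other genes are annotated for Fgfr1, Fgf10, Fgf14, Fgf15, Spred3 and Spry1.

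**Figure D1:**
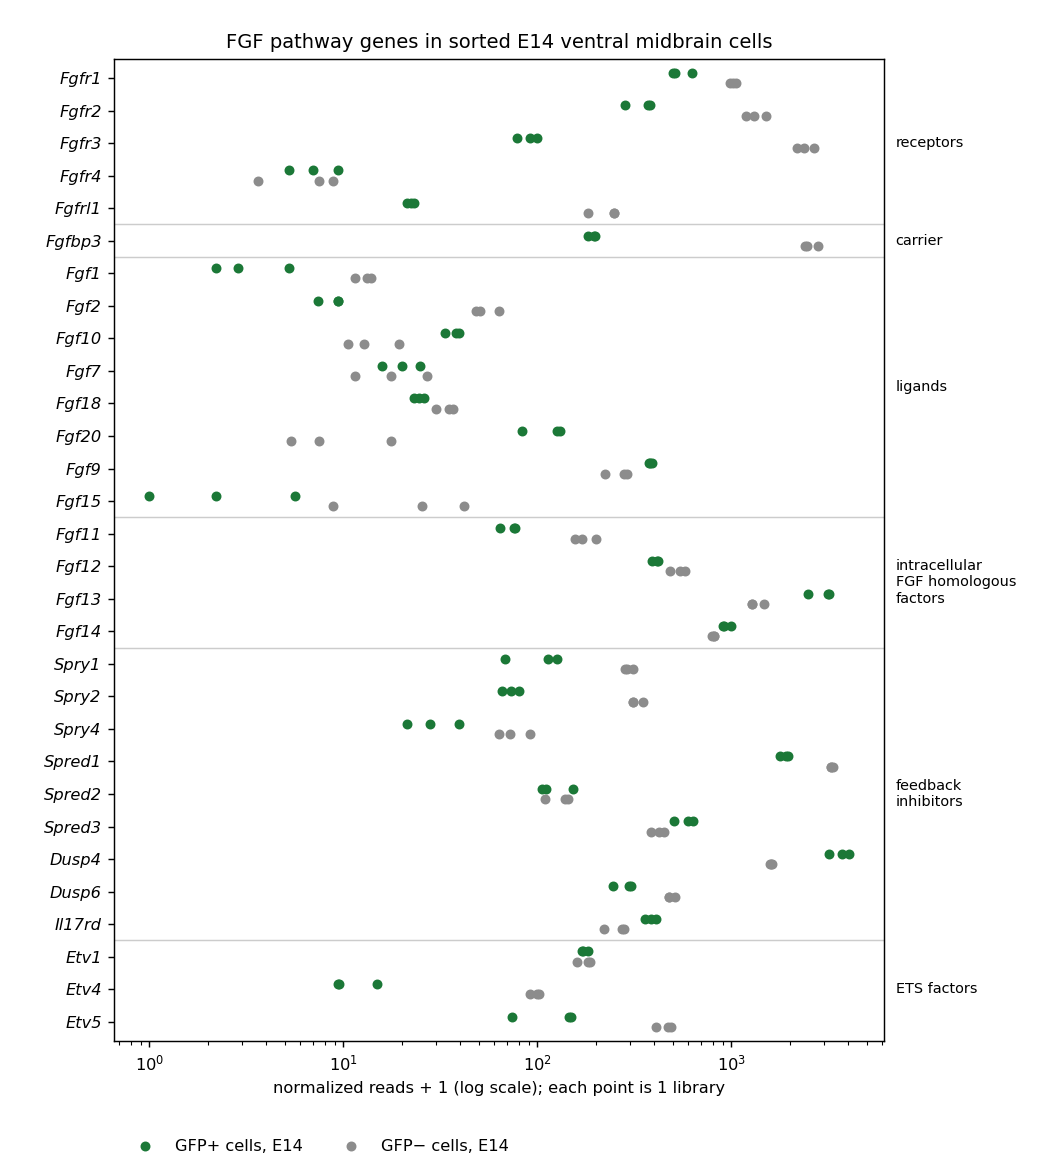
Normalized reads plus 1 on a log axis for the 30 tested FGF members, 1 point per library, with GFP+ cells above GFP− cells in each row and genes grouped by role. The 3 GFP+ libraries lie apart from the 3 GFP− libraries in 26 rows, most widely for Fgfr3, and the points mix for Fgfr4, Fgf7, Spred2 and Etv1.

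The receptors showed the widest gap. Fgfr3 (ENSMUSG00000054252, chromosome 5, 33721674 to 33737068 on GRCm38), a receptor typical of ventricular zone progenitors and astroglia, had 98.1, 77.7 and 90.4 normalized reads in the GFP+ libraries and 2651, 2363 and 2178 in the GFP− libraries. It was 26.8-fold lower in GFP+ cells (log2 fold change -4.74, SE 0.12, adjusted p = 5.72e-10), and every GFP+ library lay far under every GFP− one. Fgfr2 (chromosome 7) stood at 280.0, 370.1 and 380.7 in GFP+ and 1499, 1191 and 1306 in GFP− libraries (log2 fold change -1.96, SE 0.13, adjusted p = 5.17e-07). Fgfr1 (chromosome 8) differed least of these, with 496.6, 513.5 and 626.3 in GFP+ and 1054, 1020 and 976.8 in GFP− libraries (log2 fold change -0.90, SE 0.10, adjusted p = 4.12e-05). None of these 3 receptors overlapped between the groups. Fgfr4 was near the detection limit in both, with 5.98, 8.33 and 4.25 normalized reads in GFP+ and 6.46, 2.62 and 7.87 in GFP− libraries, and did not pass the test (log2 fold change 0.17, SE 0.51, adjusted p = 0.835). Fgfrl1, a receptor that lacks the kinase domain, was lower in GFP+ cells, at 20.3, 22.2 and 21.3 in GFP+ and 181.9, 246.8 and 245.7 in GFP− libraries (log2 fold change -3.33, SE 0.20, adjusted p = 1.96e-07). Exons of Fgfr3 share 998 bases with the opposite-strand gene G630022F23Rik, which averaged 2.52 normalized reads in GFP+ cells, against 20.4 in GFP− cells, and whether counting used strand was not given in the sources used here.

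The order of the receptors also differed between the cell groups. Per kilobase (kb) of annotated exon, GFP+ cells held a level of 55.2 ± 7.14 normalized reads of Fgfr1, 33.3 ± 5.36 of Fgfr2, 12.4 ± 1.44 of Fgfr3 and 1.75 ± 0.58 of Fgfr4 (mean ± SD, n = 3). GFP− cells held a level per kb of 103.0 ± 3.91 for Fgfr1, 129.0 ± 15.1 for Fgfr2, 334.9 ± 33.3 for Fgfr3 and 1.60 ± 0.77 for Fgfr4. Fgfr1 thus led in GFP+ cells, with 53.8% of the receptors' summed level per kb, and Fgfr3 led in GFP− cells, with 58.9%. Fgfr3 made up 12.1% of that sum in GFP+ cells. Library values per kb of neighbours in these orders did not overlap in either group.

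**Figure D2:**
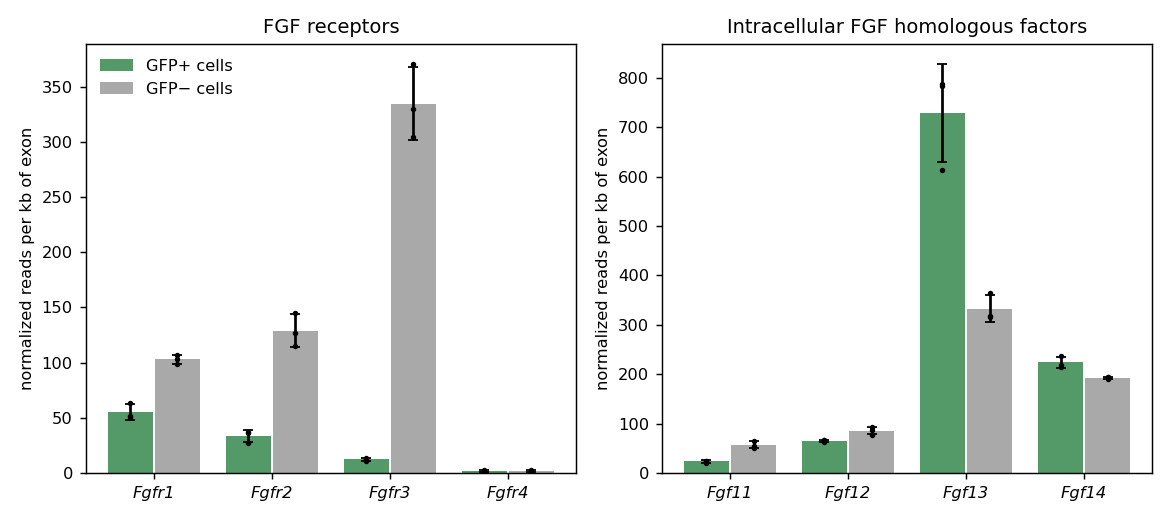
Normalized reads per kb of annotated exon for the 4 FGF receptors (left) and the 4 intracellular FGF homologous factors (right) at E14. Bars are means of 3 libraries, error bars are SD and dots are libraries; Fgfr3 is the highest receptor in GFP− cells at 334.9 and Fgf13 the highest homologous factor in GFP+ cells at 728.7.

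Fgfbp3, of a family that carries FGFs away from heparan sulfate, was also far lower in GFP+ cells. It had 197.4, 180.4 and 193.5 normalized reads in GFP+ and 2454, 2387 and 2789 in GFP− libraries, 13.3-fold lower in GFP+ cells (log2 fold change -3.73, SE 0.09, adjusted p = 5.72e-10). The related carrier Fgfbp1 lay between 0 and 3.5 normalized reads in every library and was not tested.

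Secreted ligands other than Fgf9 and Fgf20 were scarce, and the ligands were split between the groups. Per kb in GFP+ cells, Fgf9 stood at 82.2 and Fgf20 at 66.8 normalized reads, beside 55.2 for Fgfr1. Of 14 secreted or endocrine ligands, 8 reached a mean of 5 normalized reads, and 3 of these were higher and 3 lower in GFP+ cells. Over all genes tested, 12.7% were higher and 18% lower. The filter took the mean over both groups. Fgf1 and Fgf15, both lower, passed it through the GFP− libraries alone. Fgf1 averaged 2.43 in GFP+ and 11.9 in GFP− cells, and Fgf15 1.94 in GFP+ and 24.4 in GFP− cells. Fgf16, at 7.65 in GFP+ and 0.58 in GFP− cells, did not pass it, so the split depends in part on the filter. Fgf20, a ligand known to support the survival of dopamine neurons in rat, had 82.6, 129.5 and 124.4 normalized reads in GFP+ and 6.46, 4.38 and 16.6 in GFP− libraries. It was 12.5-fold higher in GFP+ cells (log2 fold change 3.64, SE 0.41, adjusted p = 3.63e-05), the largest positive change among the members tested. Its exons share 202 bases with Micu3 on the opposite strand, which was itself higher by 0.52 on the log2 scale (SE 0.08), at 1584 ± 110 normalized reads in GFP+ cells, against 1104 ± 54.0 in GFP− cells (mean ± SD, n = 3 each). Fgf9, of the same subfamily, stood at 382.0 ± 6.98 in GFP+ and 262.9 ± 35.0 in GFP− cells, higher by 0.55 on the log2 scale (SE 0.12, adjusted p = 0.00546). The third gene of that subfamily, Fgf16, was too low for the test, with 5.98, 7.40 and 9.57 normalized reads in GFP+ and 0, 0.875 and 0.874 in GFP− libraries. All 3 genes of the FGF9 subfamily thus had every GFP+ library above every GFP− library, Fgf16 at a level too low to test. The groups did not overlap, in either direction, for 44.1% of all genes tested.

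Fgf10, best known from limb and lung budding, was higher in GFP+ cells at a low level, with 38.3, 32.4 and 37.2 normalized reads in GFP+ and 11.8, 18.4 and 9.62 in GFP− libraries (log2 fold change 1.42, SE 0.32, adjusted p = 0.00538). Fgf2, a mitogen of neural progenitors, had 8.38, 8.33 and 6.38 normalized reads in GFP+ and 62.4, 47.3 and 49.8 in GFP− libraries (log2 fold change -2.64, SE 0.30, adjusted p = 3.5e-05). Its relative Fgf1 had 1.2, 1.85 and 4.25 in GFP+ and 12.9, 10.5 and 12.2 in GFP− libraries (-2.0, SE 0.49, adjusted p = 0.00929). These 2 ligands of the FGF1 subfamily were both lower in GFP+ cells (18% of all genes tested were), whereas Fgf9 and Fgf20 were higher (12.7% of all genes). Fgf2 exons overlap Nudt6 on the opposite strand, whose log2 fold change was 0.23 (SE 0.25, adjusted p = 0.526). Fgf15, an endocrine FGF that is also made in the embryonic brain, had 1.2, 4.63 and 0 normalized reads in GFP+ and 40.9, 24.5 and 7.87 in GFP− libraries (-3.19, SE 0.72, adjusted p = 0.00582), so its GFP− libraries spread over a wide range. Fgf7, at 14.8 to 23.9 normalized reads in GFP+ and 10.5 to 25.8 in GFP− libraries (log2 fold change 0.18, adjusted p = 0.759), and Fgf18, at 22.2 to 25.1 in GFP+ and 29.1 to 35.9 in GFP− libraries (-0.47, adjusted p = 0.20) did not pass the test.

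Fgf8 and Fgf17, classical midbrain organizer ligands, were at the floor, while Fgf18 of the same subfamily, given above, was high enough to test. Fgf8 had 0, 0 and 1.06 normalized reads in GFP+ and 4.31, 5.25 and 0 in GFP− libraries, and Fgf17 had 9.57, 3.70 and 2.13 in GFP+ and 4.31, 5.25 and 3.5 in GFP− libraries. Neither reached the mean of 5 needed for a test, and the groups overlapped for both. Fgf3, Fgf5 and Fgf23 also stayed under that mean, and no library of the 7 untested members held more than 10.6 normalized reads. Of the 7, Fgf16 alone had groups that did not overlap.

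**Figure D3:**
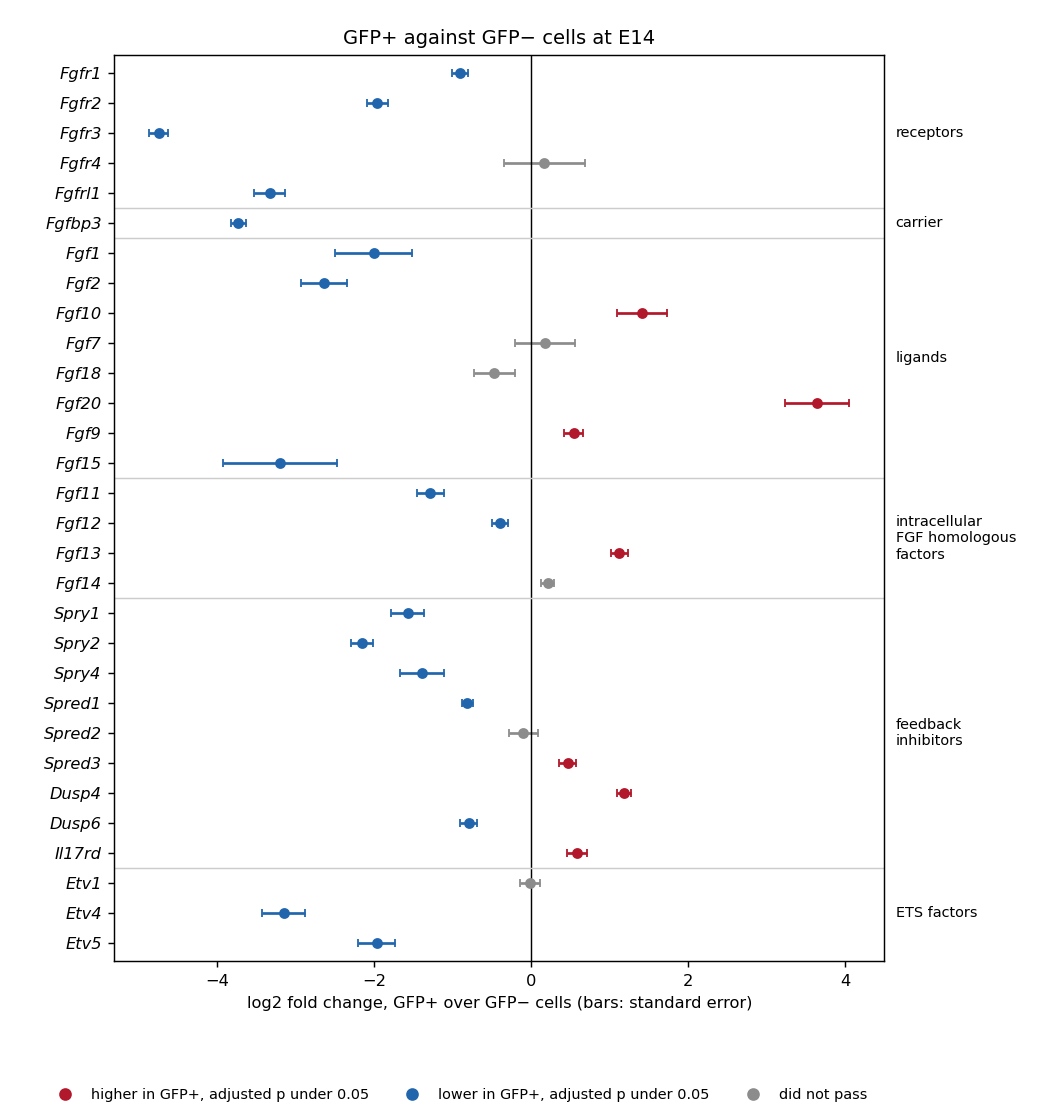
Log2 fold change of GFP+ over GFP− cells at E14 for the 30 tested members, with standard errors (limma, 3 libraries per group). Receptors, the carrier and Sprouty genes lie left of 0 apart from Fgfr4, and Fgf20 lies farthest to the right at 3.64.

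The intracellular FGF homologous factors were split, with Fgf13 higher, Fgf11 and Fgf12 lower and Fgf14 not called in GFP+ cells. Over all genes tested, 12.7% were higher and 18% were lower. Fgf13 (chromosome X), which binds sodium channels and, in neurons, microtubules, had 2470, 3153 and 3164 normalized reads in GFP+ and 1278, 1468 and 1269 in GFP− libraries. It was 2.18-fold higher in GFP+ cells (log2 fold change 1.12, SE 0.11, adjusted p = 9.84e-06). Fgf14 had 993.2, 901.1 and 912.4 in GFP+ and 810.5, 795.4 and 814.1 in GFP− libraries. The Fgf14 groups did not overlap, yet the difference missed the threshold (log2 fold change 0.21, SE 0.08, adjusted p = 0.0736). With the replicate number as a block in the limma fit, Fgf14 passed (adjusted p = 0.0118). Fgf12 had 387.7, 411.7 and 414.7 in GFP+ and 481.1, 576.6 and 540.4 in GFP− libraries (-0.39, SE 0.10, adjusted p = 0.0129). This Fgf12 call was lost without GFP− library 2 or 3 (adjusted p = 0.0680 and 0.0542). Fgf11 had 75.4, 74.9 and 62.7 in GFP+ and 155.0, 199.5 and 168.8 in GFP− libraries (-1.28, SE 0.17, adjusted p = 1.25e-04). By level per kb, Fgf13 led in both groups, at 728.7 ± 98.9 normalized reads in GFP+ cells, against 333.0 ± 28.0 in GFP− cells, and made up 70.0% of the family's summed level in GFP+ and 49.8% in GFP− cells.

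The feedback inhibitors differed in both directions. All 3 Sprouty genes, whose proteins block the route from receptor to RAS, were lower in GFP+ cells. Spry2 had 71.8, 64.8 and 79.8 normalized reads in GFP+ and 311.1, 350.9 and 308.7 in GFP− libraries (log2 fold change -2.15, SE 0.14, adjusted p = 5.17e-07). Spry1 had 67.0, 112.9 and 125.5 in GFP+ and 288.5, 310.6 and 282.5 in GFP− libraries (-1.57, SE 0.21, adjusted p = 1.42e-04). Spry4 had 20.3, 26.8 and 38.3 in GFP+ and 71.0, 62.1 and 90.9 in GFP− libraries (-1.39, SE 0.28, adjusted p = 0.00253). The GFP+ and GFP− libraries stood apart for each Sprouty gene. The Spred genes, relatives of the Sprouty genes, went 3 ways. Spred1 averaged 1879 ± 98.4 normalized reads in GFP+ cells, against 3292 ± 45.2 in GFP− cells (-0.81, SE 0.07, adjusted p = 6.35e-06), and Spred3 averaged 578.7 ± 67.2 in GFP+ and 417.8 ± 31.1 in GFP− cells (0.47, SE 0.11, adjusted p = 0.00870, but 0.0505 without GFP+ library 3). Spred2 did not pass, at -0.10 (SE 0.19, adjusted p = 0.739).

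Of the phosphatases that remove phosphate from ERK, Dusp4 and Dusp6 differed in opposite directions. Dusp4, a nuclear phosphatase (ENSMUSG00000031530, chromosome 8, 34807297 to 34819894), had 3191, 3710 and 4032 normalized reads in GFP+ and 1577, 1615 and 1593 in GFP− libraries. It was 2.27-fold higher in GFP+ cells (log2 fold change 1.19, SE 0.09, adjusted p = 1.58e-06) and, at 1330 ± 155 normalized reads per kb, had the highest level per kb of the 37 members in GFP+ cells. Dusp6, the cytoplasmic phosphatase whose promoter is shown above, averaged 281.2 ± 31.3 in GFP+ and 487.1 ± 21 in GFP− cells (-0.80, SE 0.11, adjusted p = 2.4e-04). Il17rd, which encodes the membrane inhibitor Sef, was higher in GFP+ cells at 382.8 ± 25.7 against 256.3 ± 32.0 in GFP− cells (0.58, SE 0.12, adjusted p = 0.00409). Of the 9 feedback inhibitors, 3 were thus higher, 5 lower and 1 not called, beside 12.7% of all genes higher and 18% lower.

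Of the ETS factors, Etv4 and Etv5 were lower in GFP+ cells. Etv4 had 8.38, 13.9 and 8.51 normalized reads in GFP+ and 90.4, 100.6 and 98.8 in GFP− libraries, 8.88-fold lower in GFP+ cells (log2 fold change -3.15, SE 0.27, adjusted p = 4.16e-06). Etv5 had 73.0, 147.1 and 143.6 in GFP+ and 407.9, 471.6 and 487.1 in GFP− libraries (-1.97, SE 0.23, adjusted p = 5.33e-05). Etv1, an ETS factor with neuron-specific roles in several regions, averaged 173.8 ± 6.68 in GFP+ and 175.5 ± 14.4 in GFP− cells and overlapped between the groups (-0.01, SE 0.13, adjusted p = 0.960). Genes of the dissociation response, several of which also answer ERK, moved with these. In GFP+ cells, 7 of 10 were lower (18% of all genes were), among them Fos (-2.33, SE 0.28) and Egr1 (-2.05, SE 0.34). The 10 genes summed to 1750 to 2075 normalized reads in GFP+ cells and 2810 to 2942 in GFP− cells. The part of dissociation in the feedback and ETS values was not tested.

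Between E14 and P0, the GFP+ cells changed in both directions. In the 9 libraries of the time series, 7 of 17 members differed between P0 and E14 (5 higher and 2 lower at P0), where 55.7% of all 10781 genes were called (25.1% higher and 30.6% lower). From E14 to E16, 7 members were called (6 higher, 1 lower), with 33.0% of all genes called (15.2% higher and 17.8% lower), and from E16 to P0, 6 were (2 higher, 4 lower), with 33.4% of all genes called (16.8% higher and 16.6% lower). Over the 3 ages, 9 members changed by the moderated F test, against 59.7% of all genes. The members' median log2 change from E14 to P0 was 0.06, against -0.05 over all genes. These comparisons share libraries, so their counts are not independent. Libraries did not overlap for 7 of the 17 members between P0 and E14 (65.2% of all genes), for 7 between E16 and E14 (46.4% of all genes) and for 6 between P0 and E16 (44.8% of all genes). Without the third P0 library the counts were 7 between P0 and E14 (5 higher, 2 lower) and 5 between P0 and E16 (1 higher, 4 lower).

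**Figure D4:**
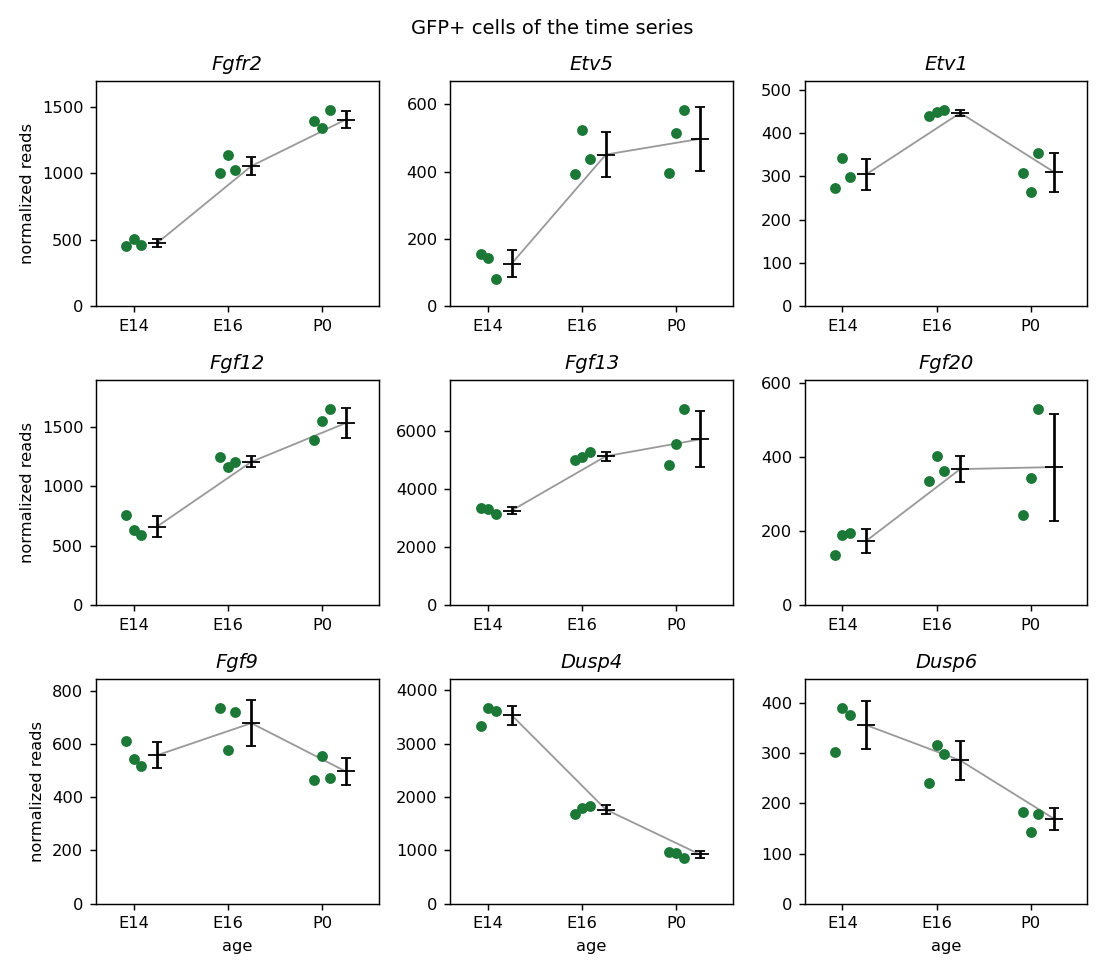
Normalized reads in GFP+ cells at E14, E16 and P0 for the 9 members that changed over the 3 ages. Points are libraries, and the mark beside them is the mean with its SD (n = 3). Fgfr2 and Fgf12 are higher and Dusp4 is lower at each later age. Dusp6 overlaps between E14 and E16 and is lower at P0, and Etv1 and Fgf9 are highest at E16.

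Fgfr2 was higher at each later age while Fgfr1 did not pass the test. Fgfr2 had 456.1, 508.2 and 463.7 normalized reads in the E14 libraries, 1002, 1136 and 1030 in the E16 libraries and 1396, 1346 and 1475 in the P0 libraries. Its log2 change from E14 to P0 was 1.56 (SE 0.09, adjusted p = 8.11e-09), and 1.53 without the third P0 library. Fgfr1 had 522.8, 471.3 and 557.0 at E14, 448.8, 463.0 and 522.3 at E16 and 501.3, 494.3 and 535.4 at P0 (E14 to P0 -0.02, SE 0.10, adjusted p = 0.905, and -0.05 without the third P0 library). The ages overlapped for Fgfr1 and not at all for Fgfr2. Per kb of exon, the level of Fgfr2 was 0.88 times that of Fgfr1 at E14, 2.11 times at E16 and 2.63 times at P0. The annotated span of Fgfr2 shares 314 exon bases with Ctbp2 on the same strand, which averaged 1757 ± 216 normalized reads at E14, 890.3 ± 68.1 at E16 and 750.2 ± 33.4 at P0. The part of shared reads was not tested. Fgfr3, Fgfr4 and Fgfrl1 had no row in the time series table.

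Fgfr2 is also made by glial cells. Beside its rise, the oligodendrocyte gene Mbp, which encodes a myelin protein, averaged 313.7 ± 15.1 normalized reads at E14, 401.3 ± 32.4 at E16 and 507.2 ± 59.4 at P0 (mean ± SD, n = 3 each). Mbp is 1 of 2 oligodendrocyte markers in the table, and the other was not called without overlap between E14 and P0. The sums of both were 471 to 509 normalized reads at E14, 522 to 587 at E16 and 589 to 733 at P0. Of the 2 astrocyte markers in the table, Sparcl1 averaged 177.1 ± 31.2, 566.0 ± 99.4 and 3066 ± 1499 at E14, E16 and P0, and Slc1a2, a glutamate transporter, fell by 0.46 on the log2 scale from E14 to P0 (adjusted p = 2.29e-04). Of the 5 progenitor markers, Fabp7 and Ptprz1 rose from E14 to P0 and Vim, Nes and Msi1 fell. The third P0 library was the highest in Fabp7, Ptprz1 and Sparcl1. In P0 libraries 1, 2 and 3, Ptprz1 had 3531, 3673 and 6136 normalized reads and Sparcl1 2364, 2047 and 4788. Ptprz1 had 3002 to 3365 at E14 and 4310 to 4666 at E16. The astrocyte markers summed to 8212 to 9547 normalized reads at E14, 7672 to 8688 at E16 and 8408 to 11468 at P0, and the 5 progenitor markers to 7780 to 8070, 7395 to 8114 and 6218 to 10844. Slc1a2 made up most of these astrocyte sums, with 8053 to 9334 at E14, 7207 to 8119 at E16 and 6045 to 6680 at P0. The part of glial RNA in the rise of Fgfr2 was not tested.

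Etv5 rose early. It had 155.3, 142.2 and 81.8 normalized reads at E14, 391.9, 522.2 and 437.1 at E16 and 394.4, 515.6 and 581.6 at P0, so that every E16 and P0 library lay above every E14 one. The log2 change was 1.87 (SE 0.21, adjusted p = 2.5e-05) from E14 to E16 and 0.13 (SE 0.21, adjusted p = 0.660) from E16 to P0, the second step being 0.01 without the third P0 library. From E14 to P0 it was 2.0, and 1.88 without the third P0 library. Etv1 had 271.9, 342.3 and 298.6 normalized reads at E14, 439.2, 448.0 and 452.1 at E16 and 308.5, 264.9 and 354.0 at P0. Etv1 was therefore highest at E16, by 0.56 over E14 (SE 0.13, adjusted p = 0.00419), and fell by 0.54 from E16 to P0 (SE 0.13, adjusted p = 0.00598), or by 0.64 without the third P0 library. Etv4 had no row in this table.

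The ERK phosphatases went the other way. Dusp4 had 3332, 3669 and 3604 normalized reads at E14, 1681, 1786 and 1831 at E16 and 967.9, 951.0 and 852.3 at P0. It fell by 1.0 (SE 0.08, adjusted p = 1.58e-06) in the first step and by 0.94 (SE 0.08, adjusted p = 3.56e-06) in the second, 3.83-fold in all, with no overlap between ages. From E14 to P0 its log2 change was -1.94, and -1.88 without the third P0 library (-0.88 for the second step). Dusp6 had 302.7, 390.6 and 376.1 at E14, 241.5, 317.5 and 298.6 at E16 and 182.9, 144.1 and 180.0 at P0. Its log2 change from E14 to P0 was -1.07 (SE 0.15, adjusted p = 3.84e-05), and -1.12 without the third P0 library. The first step of Dusp6 did not pass (-0.32, SE 0.15, adjusted p = 0.122), and its E14 and E16 libraries overlapped. The second step passed (-0.75, SE 0.15, adjusted p = 0.00212), and was -0.80 without the third P0 library. Etv5 and these phosphatases, all known targets of ERK signalling, thus moved in opposite directions from E14 to P0. Their steps differed: Dusp4 was called lower in the step in which Etv5 rose, and Dusp6 only after E16.

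The other feedback inhibitors with a row in the time series table did not change detectably. Spry2 and Spry4 had no row there, so of the Sprouty genes Spry1 alone was followed with age. Levels of Spred1, Spred2, Spred3 and Il17rd lay between 1842 and 2426, 108.0 and 144.6, 545.0 and 713.9, and 312.3 and 462.8 normalized reads over the 9 libraries. Spry1, Spred1, Spred2, Spred3 and Il17rd, with Fgfbp3, Fgfr1 and Fgf14, made up the 8 members that no age contrast or F test called. Their log2 changes from E14 to P0 lay between -0.39 and 0.20, and their adjusted p in the F test between 0.128 and 0.730. Spry1 had the largest of these in size, with 126.5, 133.4 and 159.4 normalized reads at E14, 104.1, 144.6 and 132.9 at E16 and 143.1, 113.7 and 73.6 at P0. Its change of -0.39 from E14 to P0 depended on single P0 libraries, with -0.12 (adjusted p = 0.624) without the third, which held its lowest value, and -0.60 (adjusted p = 0.0368) without the first. Without the third P0 library, the changes of the 8 members lay between -0.12 and 0.26. Fgfbp3 had 138.4, 175.5 and 229.7 at E14, 188.1, 162.5 and 116.1 at E16 and 196.6, 165.4 and 216.4 at P0, with all ages overlapping.

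Of the homologous factors, Fgf12 and Fgf13 rose and Fgf14 did not pass. Fgf12 had 761.8, 630.2 and 592.9 normalized reads at E14, 1251, 1160 and 1208 at E16 and 1395, 1554 and 1650 at P0, a log2 change of 1.22 from E14 to P0 (SE 0.10, adjusted p = 2.99e-07), and 1.16 without the third P0 library. Its step from E16 to P0 (0.34, adjusted p = 0.0194) missed the threshold without E16 library 3, P0 library 2 or P0 library 3 (adjusted p = 0.0546, 0.0644 and 0.0670). Fgf13 had 3319, 3311 and 3115 at E14, 4974, 5100 and 5272 at E16 and 4827, 5527 and 6733 at P0, a change of 0.80 (SE 0.10, adjusted p = 1.14e-05), or 0.67 without the third P0 library. Fgf14 had 1237, 976.8 and 933.2 at E14, 1283, 1170 and 1206 at E16 and 1238, 1256 and 1109 at P0 (0.20, SE 0.10, adjusted p = 0.111, and 0.26 with adjusted p = 0.0697 without the third P0 library). The first E14 library of Fgf14 lay among the later values, and without it the change passed (0.33, adjusted p = 0.0119). By level per kb at P0, Fgf13 had 1417 normalized reads, Fgf14 287.2 and Fgf12 247.1, whereas at E14 the level of Fgf12 was 106.7 and that of Fgf14 250.8.

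The 2 secreted ligands in the time series table are both of the FGF9 subfamily. Fgf20 had 135.4, 190.5 and 193.8 normalized reads at E14, 335.1, 404.8 and 364.1 at E16 and 245.1, 345.1 and 530.2 at P0. It rose by 1.10 from E14 to E16 (SE 0.22, adjusted p = 0.00192) and its P0 libraries then spread on both sides of the E16 ones, the third being the highest. From E14 to P0 it rose by 1.05 (SE 0.22, adjusted p = 0.00119), or by 0.76 without the third P0 library (adjusted p = 0.00409). Micu3, which overlaps it on the other strand, rose by 0.61 (SE 0.09). Fgf9 had 611.4, 542.4 and 518.3 at E14, 734.9, 578.6 and 719.8 at E16 and 464.0, 554.1 and 473.0 at P0, and fell by 0.44 from E16 to P0 (SE 0.12, adjusted p = 0.0109, but 0.0518 without E16 library 3), or by 0.41 without the third P0 library.

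The test of the 2 steps against each other called 4 members, Fgfr2, Etv5, Etv1 and Fgf9, and in each the change after E16 was more negative than the change before it (13.6% of all genes were called, 8.0% higher and 5.62% lower). Etv1 rose and then fell, Fgf9 changed by 0.28 (adjusted p = 0.0862) and then fell, and Fgfr2 and Etv5 rose less after E16 than before it. With equal totals, the genes called in this test split into 632 higher and 717 lower, against 862 and 606 as deposited, and 5 members were called, all lower. Without the third P0 library, 7 members were called, Fgf12, Fgf13 and Fgf20 joining the 4, again all lower, and the differences of the 4 were then -0.77 for Fgfr2, -1.86 for Etv5, -1.2 for Etv1 and -0.69 for Fgf9. The call of Fgf9 was lost without E14 library 2 or 3, E16 library 1 or 3, or P0 library 1 (adjusted p = 0.0620 to 0.145). That of Fgf12 was gained without E14 library 1 (-0.64, adjusted p = 0.0253).

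**Figure D5:**
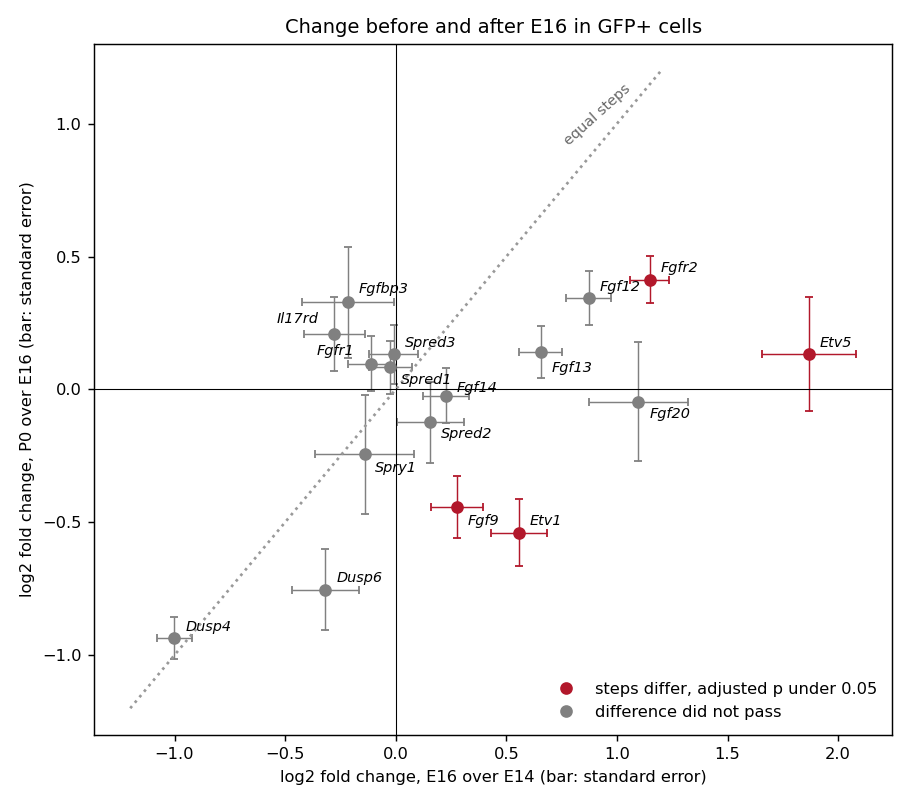
Log2 change from E16 to P0 (vertical) against that from E14 to E16 (horizontal) for the 17 members of the time series, with standard errors; the dotted line marks equal steps. Fgfr2, Etv5, Etv1 and Fgf9 (red) lie below the line by the test of the difference, while Dusp4 lies close to the line at about 1 unit down in each step.

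Across the 9 time series libraries, which share their 3 ages, the genes outside the set most like Fgfr2 were Adcy2, Mgat4a and Rasgrp2 (Pearson r = 0.994, 0.994 and 0.993), as a description. For Fgf13 they were Slc35f1, Smim10l2a and Pea15a (r = 0.999, 0.998 and 0.996), and for Fgfr1, which varied little, Gripap1, Fam20b and Evi5l (r = 0.847, 0.846 and 0.837). Among the members, Fgf12 and Fgfr2 were the most alike (r = 0.968) and Dusp4 and Fgf12 the most opposed (r = -0.96).

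Heparan sulfate is part of the FGF receptor complex, and 20 of 29 tested genes for coreceptors and heparan sulfate differed between GFP+ and GFP− cells, 11 higher and 9 lower. Ndst3, a sulfotransferase of the chain, averaged 3022 ± 634 normalized reads in GFP+ cells, against 684.9 ± 139 in GFP− cells (log2 fold change 2.14, SE 0.16). Syndecan 2 (Sdc2), a membrane carrier of these chains, was higher by 1.76 (SE 0.10) and the sulfotransferase Hs3st1 by 1.57 (SE 0.22). Glypicans 4 and 3 were lower, Gpc4 at 1.82 ± 0.78 in GFP+ and 46.8 ± 3.5 in GFP− cells (-4.13, SE 0.39) and Gpc3 at 12.6 ± 2.64 in GFP+ and 145.7 ± 21.8 in GFP− cells (-3.44, SE 0.25), as was Sdc4 (-2.74, SE 0.28). Over time, 13 of 24 changed from E14 to P0, 8 higher and 5 lower. Sdc2 rose by 1.74 (SE 0.10), with Hs6st2 (1.39, SE 0.14) and Hs6st3 (1.32, SE 0.15), while Gpc2 (-2.40, SE 0.16), Ndst3 (-1.14, SE 0.14) and Sdc1 (-0.92, SE 0.13) fell. These shares, 20 of 29 and 13 of 24, stand beside backgrounds of 30.7% and 55.7% of all genes.

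The adaptors and kinases of the RAS-ERK relay gave 10 of 28 genes called between GFP+ and GFP− cells, 7 higher and 3 lower, beside 30.7% of all genes. Gab2, a docking protein, was higher by 1.14 (SE 0.10), and Cbl, a ubiquitin ligase, and Map2k1, which encodes the ERK kinase MEK1, by 0.40 (SE 0.09) and 0.39 (SE 0.09). The adaptor Shc3 was lower at 240.2 ± 44.3 normalized reads in GFP+ cells, against 870.0 ± 36.2 in GFP− cells (-1.87, SE 0.14), with Shc1 (-0.69, SE 0.20) and Gab1 (-0.65, SE 0.10). From E14 to P0, 16 of 27 changed, 7 higher and 9 lower, beside 55.7% of all genes. Shc3 rose by 2.05 (SE 0.13), with means of 463.8 ± 82.3 at E14 and 1914 ± 312 at P0, along with Araf (0.73, SE 0.08) and Map2k1 (0.50, SE 0.08). Gab1 (-0.84, SE 0.20) and Map2k2 (-0.50, SE 0.10) fell. Shc3, like Fgfr2 and Etv5, was thus lower in GFP+ than in GFP− cells at E14 and higher in GFP+ cells at P0 than at E14.

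Sodium channel alpha subunits are the partners of the homologous factors. At E14, 3 of 7 were higher in GFP+ cells (12.7% of all genes were), Scn9a by 1.58 (SE 0.18), Scn3a by 0.78 (SE 0.14) and Scn8a by 0.32 (SE 0.10). From E14 to P0, all 5 in the time series table rose (25.1% of all genes were higher), led by Scn2a, with 6278 ± 537 normalized reads at E14 and 13648 ± 1094 at P0 (1.12, SE 0.08), and Scn1a (1.10, SE 0.11), followed by Scn9a (0.37, SE 0.09). The median log2 changes of this list, 0.32 in GFP+ against GFP− cells and 0.37 from E14 to P0, stood beside 0.02 and -0.05 over all genes.

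Circular RNAs (circRNAs), loops whose reads span a back-splice, gave little from these genes. Of 7528 circRNAs in the time series, 12 came from 5 members (6 from Fgfr2, 3 from Spred1 and 1 each from Spred2, Fgf13 and Fgf14), and 7 of the 12 were seen in 1 library only. The 2 with a mean of at least 2 normalized reads were tested by limma and none passed between P0 and E14, against 3.19% of 1630 circRNAs (52 circRNAs, and 9 to 61 with 1 library left out, the lowest without E14 library 1). At an unadjusted p under 0.05, 309 of those circRNAs passed. The circle circ_01334_Spred1 had 5.35, 5.75 and 4.57 normalized reads at E14, 0, 2.86 and 2.29 at E16 and was listed at 0 in all P0 libraries (log2 change -2.63, SE 0.91, adjusted p = 0.111), while the gene Spred1 did not pass the test. In GFP− cells, 5 circRNAs came from members (3 from Fgfr2 and 2 from Spred1). The most abundant, circ_00602_Spred1, averaged 4.92 ± 1.34 normalized reads there, and the authors' deposited table gives it a log2 fold change of GFP+ over GFP− cells of -0.56 and an adjusted p of 0.987.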

How the data were processed

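Ribosome-depleted total RNA was sequenced from 15 libraries, 3 per group. The authors deposited normalized reads per gene and per circRNA, a signal in which each library was divided by 1 factor. Per the submitters' processing notes, Trim Galore, TopHat2, DESeq2 and GRCm38 were used, without versions. The read counter and whether it used strand are not given in the sources used here. The authors' deposited tables also hold log2 fold changes and adjusted p-values, quoted where named.

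Values were tested with limma 3.58.1 (R 4.3.3, trend, two-sided) as log2(normalized reads + 1), which understates fold changes of low genes, with Benjamini-Hochberg adjustment over all genes at 0.05. Genes needed a mean of 5 normalized reads and circRNAs of 2. The 6 sorted libraries were fitted alone and the 9 time series libraries together. Dividing by the steps gave whole reads (within 0.1) for 100.0% of gene values, and edgeR 4.0.16 and DESeq2 1.42.0 were run on these reads as alternatives. Code was tested on simulated data. Levels per kb used GENCODE M21 exon lengths, and the promoters came from RefSeq.

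Per-library values are given for members called with a log2 change of at least 1 in the sorted fit or between P0 and E14, for receptors and for homologous factors. Up to 3 genes per direction are named from each pathway list, and 3 per gene for likeness. Some genes that this rule or the marker lists cover are not reported here. The members and lists were chosen with earlier results of these data known.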

Additional observations from a re-analysis of the deposited data

Results flagged for a closer look

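A difference between the change after E16 and the change before it was found by limma for 4 members, each with 3 libraries per age. The difference on the log2 scale was -1.73 for Etv5, which rose by 1.87 before E16 and changed by 0.13 after it. It was -1.10 for Etv1, which rose by 0.56 and then fell by 0.54. For Fgfr2 it was -0.73, from a rise of 1.15 and a further rise of 0.41. For Fgf9 it was -0.72, from a change of 0.28 that did not pass the test and a fall of 0.44. Both changes share the E16 libraries, so a deviation of those libraries enters them with opposite signs.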

How the results depend on the processing

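No call of a member reversed its direction under any alternative run, while some members that did not pass changed sign with 1 library left out, such as Fgfr4 (-0.22 to 0.43) and Fgf7 (-0.12 to 0.49) between GFP+ and GFP− cells. Of the counts of calls, 176 values stayed within 1.5 times the main count and 5 moved beyond it. With the replicate number as a block, 8466 genes were called between GFP+ and GFP− cells (4149 higher, 4317 lower), against 5599 without it, and 25 members against 24, Fgf14 being added (adjusted p = 0.0118). The block gave 5 members in the test of the change after E16 against that before it, with Fgf20 added (adjusted p = 0.0206). Same-numbered sorted libraries correlated at 0.367, 0.120 and 0.0976 in their deviations from the group means. Sorted pairs of unlike number lay between -0.297 and 0.229, the highest being GFP+ library 2 with GFP− library 3. Same-numbered time series libraries correlated at -0.11 to 0.24. The labels number GFP+ and GFP− libraries alike but state no shared source, so whether the sorted libraries are paired is not known. Leaving out 1 library at a time gave 3 to 7 members and 625 to 1801 genes in the test of the 2 steps (4 and 1468 with all libraries), the genes being 625 without E16 library 3. It gave 23 to 24 members between GFP+ and GFP− cells, 7 to 8 between P0 and E14, 7 to 8 between E16 and E14, 4 to 6 between P0 and E16 and 8 to 10 over the 3 ages. Without a filter 25 members were called, with Fgf16 added, and with a mean of at least 20 normalized reads 22. edgeR and DESeq2 on recovered reads each called 24 members, and 5541 and 5502 genes. Among single members, 12 calls were lost and 11 gained over all alternatives. Fgf9 was also called between E16 and E14 without E16 library 2 (adjusted p = 0.0190), and Fgf14 without E14 library 1 (adjusted p = 0.0155). The cause of these differences was not tested. Depth limits the 7 members under a mean of 5 normalized reads, and the time series table holds no gene with a mean under 107.2 normalized reads, so 20 members could not be followed with age.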
